A study of Gallus gallus with 9 samples.

Results

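This account covers 10 genes that act around the ERK pathway in chick splanchnic mesoderm explants. They are the Sprouty genes SPRY1 and SPRY2, the Sprouty-related genes SPRED1 and SPRED2, the phosphatase genes DUSP4, DUSP5 and DUSP6, the membrane inhibitor gene IL17RD, and the transcription factor genes ETV4 and ETV5. They were taken by their symbol in the array annotation, which gives them 22 of the 38439 probe sets other than controls. Where several probe sets carry a symbol, the one with the highest mean over all arrays stands for the gene, and all 10 passed the filter on low signal, as did 11721 named genes in all.

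The explants hold the progenitors of the anterior heart field, and 9 Affymetrix arrays of biotin-labelled total RNA were made from them, 1 per sample. Untreated explants were taken at 0 h or after 3, 12 or 24 h on a collagen drop, and BMP4-treated explants after 3, 12 or 24 h with human recombinant BMP4 at 200 ng/ml. All cultured explants, treated or not, stood in the same medium with fetal calf serum and chick embryo extract. The 12 h time has 2 arrays in each arm, A and B, and each of the other 5 groups is 1 array. The labels do not say whether A and B come from separate explants, so the spread between them may be technical. The p-values for 3, 12 and 24 h together rest on that spread and on how far the BMP4 effect differed between times. All other p-values rest on the spread between A and B alone. In both cases the fit drew the spread of each probe set toward that of other probe sets of like signal. The labels give neither the embryo stage nor how many explants went into a sample.

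Fibroblast growth factors (FGFs) bind receptor tyrosine kinases at the cell surface and pass their signal through Ras, Raf and MEK to the kinase ERK. Active ERK turns on genes whose products damp the same pathway: Sprouty and SPRED proteins act near Ras and Raf, IL17RD (also called Sef) acts at the membrane, and DUSP proteins remove the phosphates that keep ERK active. ETV4 and ETV5 belong to the PEA3 group of ETS transcription factors and are widely used as readouts of FGF signaling. In vertebrate embryos FGF signaling is known to keep heart field progenitors dividing, while BMP signaling is known to favor their differentiation into heart muscle.

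The values are probe set signals on a linear scale. Median signal was 67.17 to 67.67 on the 9 arrays. The heart field markers ISL1 (5402 to 11120), NKX2-5 (4049 to 9211) and GATA5 (6546 to 15842) were far above that median on every array, TCF21 ran from 738 to 2226 and TBX1 from 36.8 to 224, and FOXF1 (7.43 to 35.8) stayed below the median. The epithelial adhesion genes EPCAM (21048 to 30824) and CDH1 (4196 to 11127) were also far above the median on every array. BMP4 treatment showed in its known targets: MSX2 (log2 difference 1.87 ± 0.10), BAMBI, SMAD7 and SMAD6 rose among 7 BMP response genes and none fell. ID1 (0.33 ± 0.14), ID2 (0.14 ± 0.07) and ID3 (0.39 ± 0.11) did not pass the test over 3, 12 and 24 h together. The 3′ to 5′ signal ratio of ACTB, a sign of RNA integrity, was higher with BMP4 at 3 h (4.96 against 4.51) and at 24 h (5.67 against 3.72). At 12 h it was 5.50 (A) and 4.26 (B) with BMP4 against 5.44 (A) and 3.80 (B) without. Its part in the differences below was not tested.

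**Figure D1:**
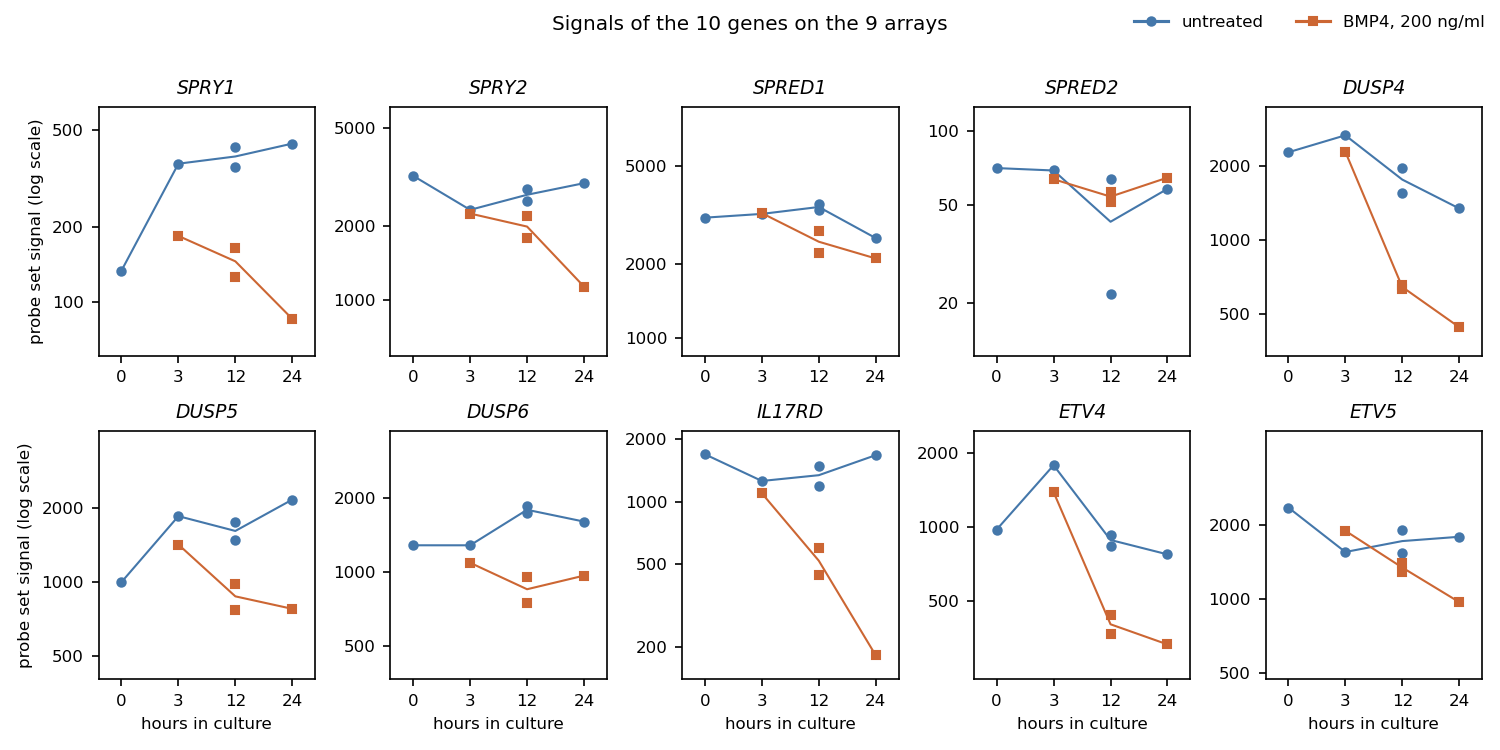
Signals of the 10 genes on the 9 arrays, on log scales, against hours in culture, with the times evenly spaced. Each point is 1 array, lines join the group means, and blue circles are untreated and orange squares BMP4-treated explants. In 8 of the 10 genes the BMP4 24 h array is the lowest group. The share of all named genes for which this holds was not counted.

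SPRY1, a Sprouty inhibitor, had a signal of 134 at 0 h. It read 363 at 3 h, 427 (A) and 351 (B) at 12 h and 439 at 24 h without BMP4, and 185, 166 (A), 126 (B) and 85.0 at the same times with it. All 4 BMP4-treated arrays lay below all 4 untreated cultured arrays, and the treated series ended below the 0 h level while the untreated series ended above it. Over 3, 12 and 24 h together SPRY1 fell with BMP4, with a log2 difference of −1.37 ± 0.22 (2.58-fold, limma, adjusted p = 0.00844). Here and below ± gives the standard error that the fit assigns to a log2 difference, and p-values were adjusted over all 28329 tested probe sets. The difference was −0.88 ± 0.39 at 3 h, −1.27 ± 0.28 at 12 h and −2.05 ± 0.39 at 24 h, none past the test alone (adjusted p = 0.9998, 0.0932 and 0.0501).

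SPRY2, its paralog and likewise an inhibitor of signaling from receptor tyrosine kinases, started at 3194 at 0 h. Untreated explants read 2323 at 3 h, 2817 (A) and 2533 (B) at 12 h and 2982 at 24 h. BMP4-treated explants read 2244, 2186 (A), 1787 (B) and 1132. The arms were nearly level at 3 h and farthest apart at 24 h, and again no treated array reached an untreated one. SPRY2 fell at 24 h (−1.38 ± 0.25, adjusted p = 0.0405), where 1 array stands against 1 and the spread comes from the 12 h arrays. Over the 3 times together the difference of −0.57 ± 0.18 did not pass the test (95% interval −0.96 to −0.18, adjusted p = 0.202).

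SPRED1 and SPRED2 restrain Ras signaling together with neurofibromin. SPRED1 read 3086 at 0 h, then 3197, 3315 (A), 3507 (B) and 2549 untreated and 3219, 2712 (A), 2216 (B) and 2106 with BMP4. The arms were level at 3 h, apart at 12 h without overlap, and closer at 24 h. Its difference across times was −0.30 ± 0.12 and did not pass the test (95% interval −0.57 to −0.03, adjusted p = 0.394). The second tested probe set of SPRED1 gave −0.35 ± 0.20 across times, but −0.97 ± 0.36 at 24 h against −0.27 ± 0.24 for the brighter one.

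SPRED2 had signals near or below the array median, with 70.7 at 0 h. It read 69.1, 21.7 (A), 63.9 (B) and 58.2 untreated and 63.7, 51.6 (A), 56.7 (B) and 64.7 with BMP4. The arms overlapped, and the lowest value belongs to untreated array A at 12 h alone. The difference across times was 0.15 ± 0.27 (95% interval −0.44 to 0.74, adjusted p = 0.929), or −0.06 without that array.

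DUSP4 encodes a nuclear phosphatase of ERK and other MAP kinases. Its signal was 2266 at 0 h and highest at 3 h, with 2656 untreated and 2277 with BMP4. It then read 1553 (A), 1956 (B) and 1339 untreated, against 655 (A), 629 (B) and 441 treated. Both arms were lower after 3 h, and from 12 h on every treated array lay below every untreated one. DUSP4 fell with BMP4 across times (−1.14 ± 0.20, adjusted p = 0.0130), at 12 h alone (−1.40 ± 0.20, adjusted p = 0.0138) and at 24 h alone (−1.55 ± 0.28, adjusted p = 0.0400). The other tested bright probe set of DUSP4 fell across times as well (−0.97 ± 0.20, adjusted p = 0.0358). It did not pass the limma test at 12 h (−1.01 ± 0.26, adjusted p = 0.174) or at 24 h (−1.41 ± 0.37, adjusted p = 0.158).

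DUSP5 encodes a nuclear phosphatase specific for ERK. It read 998 at 0 h, then 1852, 1750 (A), 1475 (B) and 2162 untreated and 1420, 979 (A), 769 (B) and 778 with BMP4. Untreated arrays were above the 0 h array at each later time, and treated arrays were above it at 3 h only. DUSP5 fell with BMP4 across times (−0.89 ± 0.17, 1.85-fold, adjusted p = 0.0234), while its differences of −0.87 ± 0.21 at 12 h and −1.44 ± 0.29 at 24 h did not pass the test alone (adjusted p = 0.127 and 0.0605).

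DUSP6 encodes the cytoplasmic ERK phosphatase that marks FGF signaling centers in vertebrate embryos. Its signals were 1281 at 0 h, 1281, 1847 (A), 1726 (B) and 1599 untreated, and 1088, 955 (A), 743 (B) and 965 with BMP4. The arms were closest at 3 h, and for this gene the 12 h gap, at 2.10-fold between mean signals, was not wider at 24 h (1.66-fold). DUSP6 fell across times (−0.77 ± 0.16, adjusted p = 0.0403), with −1.06 ± 0.20 at 12 h (adjusted p = 0.0564) and −0.71 ± 0.29 at 24 h (adjusted p = 0.416) not past the test.

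IL17RD had the widest gap of the 10 at 24 h. Its signals were 1690 at 0 h, 1257, 1192 (A), 1490 (B) and 1674 untreated, and 1097, 596 (A), 443 (B) and 182 with BMP4. By this probe set the untreated explants were back at the 0 h level by 24 h, when the treated array held 10.9% of the untreated signal. IL17RD fell across times (−1.47 ± 0.32, 2.76-fold, adjusted p = 0.0424), at 12 h (−1.33 ± 0.23, adjusted p = 0.0355) and at 24 h (−3.02 ± 0.32, 8.10-fold, adjusted p = 0.00290). A second probe set of IL17RD read 511 untreated and 42.9 with BMP4 at 24 h and fell there too (−2.93 ± 0.49, adjusted p = 0.0288). That probe set did not pass the limma test across times (−1.43 ± 0.36, adjusted p = 0.0942) or at 12 h (−1.35 ± 0.35, adjusted p = 0.168). Its course without BMP4 was another one, with 268 at 0 h and 334 at 3 h, so it lay above its 0 h level at 3 h and 24 h.

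ETV4 read 977 at 0 h and peaked at 3 h in both arms, at 1784 untreated and 1387 with BMP4. The later signals were 841 (A), 932 (B) and 774 untreated and 367 (A), 438 (B) and 333 treated. Untreated explants were thus near the 0 h level after the peak, and treated ones below it. ETV4 fell with BMP4 across times (−0.92 ± 0.17, adjusted p = 0.0201), with −1.09 ± 0.22 at 12 h and −1.15 ± 0.30 at 24 h not past the test (adjusted p = 0.0634 and 0.156). Its other tested probe set was dim, with a mean signal of 43.6, and gave −0.36 ± 0.31.

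ETV5, the close relative of ETV4, read 2364 at 0 h. It had no 3 h peak: untreated arrays read 1559, 1540 (A), 1914 (B) and 1798, and treated arrays 1902, 1295 (A), 1401 (B) and 975. The treated array was the higher one at 3 h and the lower one at 24 h. The difference across times, −0.32 ± 0.17, did not pass the test (95% interval −0.68 to 0.05, adjusted p = 0.575), nor did −0.86 ± 0.27 at 24 h (adjusted p = 0.245). The other 2 bright probe sets of ETV5 gave −0.61 ± 0.17 and −0.36 ± 0.22 across times. Whether BMP4 acted differently on ETV4 and ETV5 was not tested.

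**Figure D2:**
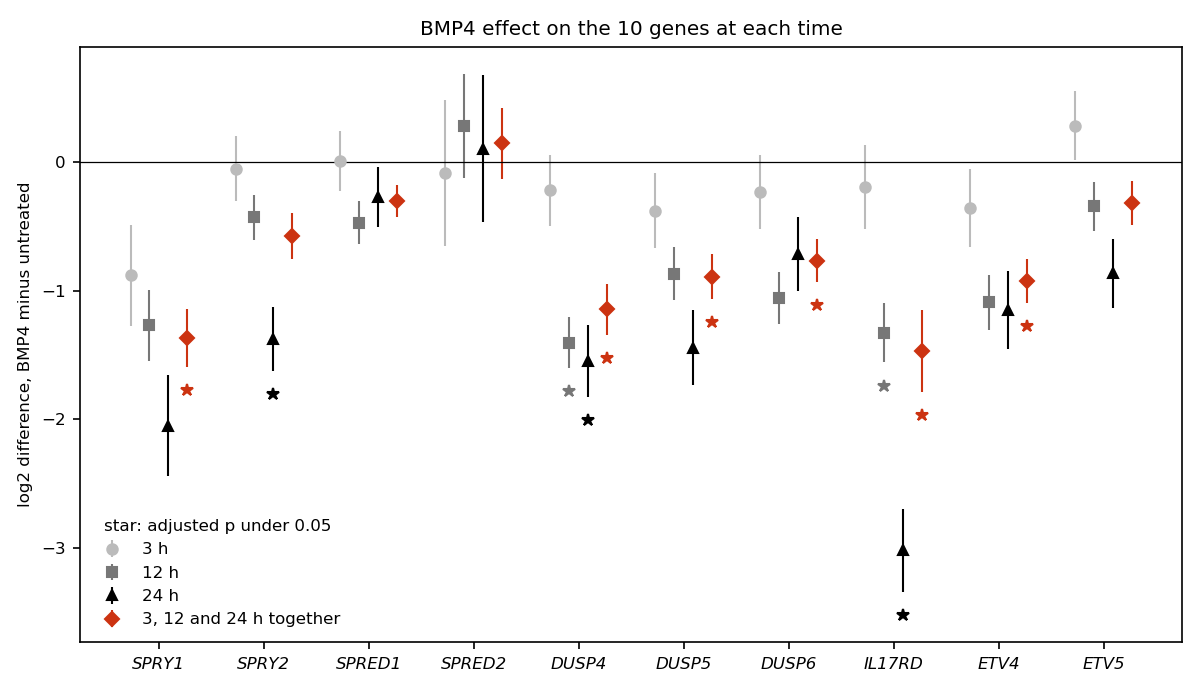
Log2 difference between BMP4-treated and untreated explants for each of the 10 genes at 3, 12 and 24 h and over the 3 times together, with bars of 1 standard error from the limma fit. Stars mark differences past an adjusted p of 0.05; IL17RD at 24 h lies lowest, at −3.02, and SPRED2 is near 0 throughout.

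Taking the 10 genes as a group, 6 fell and none rose with BMP4 across times: SPRY1, DUSP4, DUSP5, DUSP6, IL17RD and ETV4. By the same test 0.708% of all 11721 named genes were called lower and 1.14% higher. The median log2 difference of the 10 genes was −0.83, against −0.01 for all named genes, and 9 of the 10 had a negative sign, against 51.2% of all. The 10 genes were chosen with earlier results of these data known. Their excess over all named genes, here and at single times, may thus come in part from that choice. SPRY4 (−0.15 ± 0.24) and ETV1 (−0.40 ± 0.12), of the same families, were not among the 10 and did not pass the test. In bulk RNA, fewer cells that express the 10 genes and less of the RNA in each cell cannot be told apart. The number called rests on the 12 h arrays and the 24 h pair: without untreated array A or BMP4 array B it was 1, without untreated array B or BMP4 array A it was 2. Without the 24 h pair it was 1, without the 3 h pair 6 and without all 12 h arrays 0. SPRY1 was called in each of these fits other than that without the 12 h arrays. In a fit with no trend of variance with signal none of the 10 was called, and 7 had an unadjusted p under 0.05. How many of all probe sets were under 0.05 in that fit was not counted.

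At 12 h, the replicated time, 2 of the 10 genes fell, DUSP4 and IL17RD, against 0.341% of named genes called lower and 0.691% called higher. For 9 of the 10 genes both treated signals lay under both untreated ones, which holds for 19.8% of named genes. The median difference was −0.96 for the 10 genes and −0.0032 for all named genes. Of the 10, 8 had an unadjusted limma p under 0.05, against 2482 of the 28329 tested probe sets. Without untreated array A, untreated array B or BMP4 array B, 1 gene was called, and without BMP4 array A, 2. In a fit with no trend of variance with signal none was called, and 6 had an unadjusted p under 0.05. The share of all probe sets under 0.05 in that fit was not counted.

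At 24 h, SPRY2, DUSP4 and IL17RD fell, 3 of the 10, against 0.776% of named genes called lower and 0.435% higher, and the median was −1.26, against 0.00069 for all. Leaving out any 1 of the 4 arrays of 12 h (untreated A or B, BMP4 A or B) kept the 24 h differences the same and changed only their spread. Calls gained that way are no added support. With no trend of variance none was called. At 3 h none of the 10 was called by limma, against 0% of named genes called lower and 0.0256% higher. Of the 10, only SPRY1 had an unadjusted p under 0.05 at 3 h, against 1212 of the 28329 tested probe sets. The median of the 10 at that time was −0.21, against −0.01 for all. Treated signals lay below the untreated ones of the same time at all 3 times for 7 of the 10 genes, the exceptions being SPRED1, SPRED2 and ETV5, and this holds for 7.52% of named genes. For 5 of them, SPRY1, SPRY2, DUSP5, DUSP6 and IL17RD, all 4 treated arrays lay below all 4 untreated cultured arrays, as for 2.09% of named genes.

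The BMP4 effect was more negative at 24 h than at 3 h for 9 of the 10 genes, against 48.9% of all named genes. The median change was −1.11 on the log2 scale, against 0.01 for all named genes. No change passed the test by limma, and 5 of the 10 had an unadjusted p under 0.05, against 2023 of the 28329 tested probe sets. Over named genes, 0.102% were called with a more negative effect at 24 h. IL17RD had a change of −2.83 ± 0.46 (adjusted p = 0.0872). SPRY2 had a change of −1.33 ± 0.35 (adjusted p = 0.390) and DUSP4 by −1.33 ± 0.40 (adjusted p = 0.470). Leaving out any 1 of the 4 arrays of 12 h (untreated A or B, BMP4 A or B) kept these changes the same and affected only their spread.

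**Figure D3:**
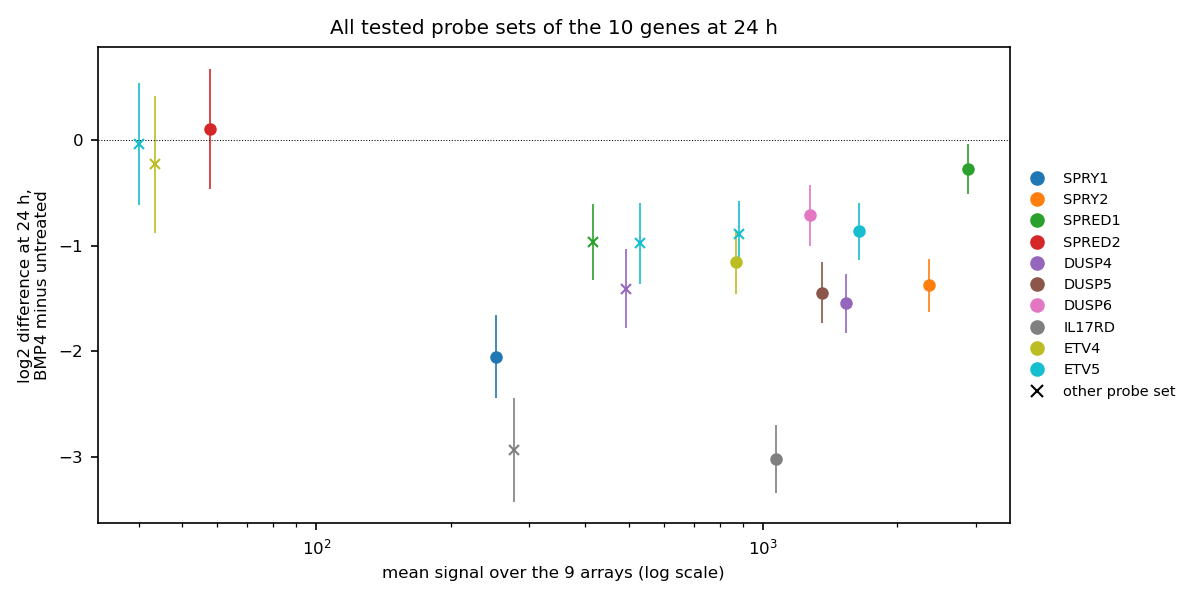
Log2 difference at 24 h for all 17 tested probe sets of the 10 genes against their mean signal over the 9 arrays, with bars of 1 standard error. Circles are the probe sets that represent the genes and crosses the others; 16 of 17 lie below 0, and the 3 dimmest, with mean signals of 40.1, 43.6 and 57.8, lie at −0.04, −0.23 and 0.10.

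Of the 22 probe sets, 5 were too dim to be tested, with mean signals of at most 29.5, and SPRY1, SPRY2 and DUSP6 have 1 probe set each. Of the 17 tested, 16 had a negative sign across times and 7 were called lower; the positive one was that of SPRED2. At 3 h the 3 bright probe sets of ETV5 differed in sign, at 0.28, 0.27 and −0.13.

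In culture without BMP4 the 10 genes had differences of either sign between successive times, and limma called none of them. From 0 h to 3 h SPRY1 was higher by 1.28 ± 0.39 (adjusted p = 0.318), DUSP5 by 0.87 ± 0.29 (adjusted p = 0.366) and ETV4 by 0.85 ± 0.30 (adjusted p = 0.403). These are the 3 of the 10 with an unadjusted p under 0.05, against 2606 of the 28329 tested probe sets. ETV5 (−0.59 ± 0.27), SPRY2 (−0.45 ± 0.25) and IL17RD (−0.42 ± 0.32) had a negative sign. The second probe set of IL17RD was higher at 3 h than at 0 h (334 against 268). At this step 0.495% of named genes were called higher and 0.0256% lower. ETV4 then differed by −0.99 ± 0.26 from 3 h to 12 h (adjusted p = 0.184) and DUSP4 by −0.60 ± 0.24 (adjusted p = 0.440); 0.324% of named genes were called lower and 0.486% higher at that step. From 12 h to 24 h none of the 10 had an unadjusted p under 0.05, against 2068 of the 28329 tested probe sets. At that step 0.0171% of named genes were called lower and 0.0683% higher.

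With BMP4 present, DUSP4 and ETV4 fell from 3 h to 12 h, with log2 differences of −1.78 ± 0.24 (3.44-fold, adjusted p = 0.00753) and −1.72 ± 0.26 (3.30-fold, adjusted p = 0.0118). In a fit with no trend of variance neither was called. All 10 genes had a negative sign at this step, against 49.6% of all named genes. Of named genes, 0.751% were called lower and 1.25% higher. From 12 h to 24 h none was called by limma, against 0.631% of named genes called lower and 0.478% higher. IL17RD (−1.37 ± 0.28, adjusted p = 0.0674) and SPRY2 (−0.79 ± 0.22, adjusted p = 0.194) were the 2 with an unadjusted p under 0.05. Of the 28329 tested probe sets, 2957 were under it. Leaving out untreated array A or B of 12 h kept the differences of that step the same and affected only their spread. The comparisons of successive times share arrays, and those with BMP4 share arrays with the treatment comparisons. By 24 h in BMP4 the signals of the 10 genes ran from 10.8% of the 0 h signal for IL17RD and 19.4% for DUSP4 to 77.9% for DUSP5 and 91.4% for SPRED2. Here 1 array stands against 1, and SPRED2 lay near the array median. The share of all named genes below their 0 h signal was not counted. Untreated explants at 24 h held 3.29 times the 0 h signal for SPRY1, 2.17 times for DUSP5, and 0.99 and 0.591 times for IL17RD and DUSP4. The second probe set of IL17RD read 511 at 24 h without BMP4 against 268 at 0 h.

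**Figure D4:**
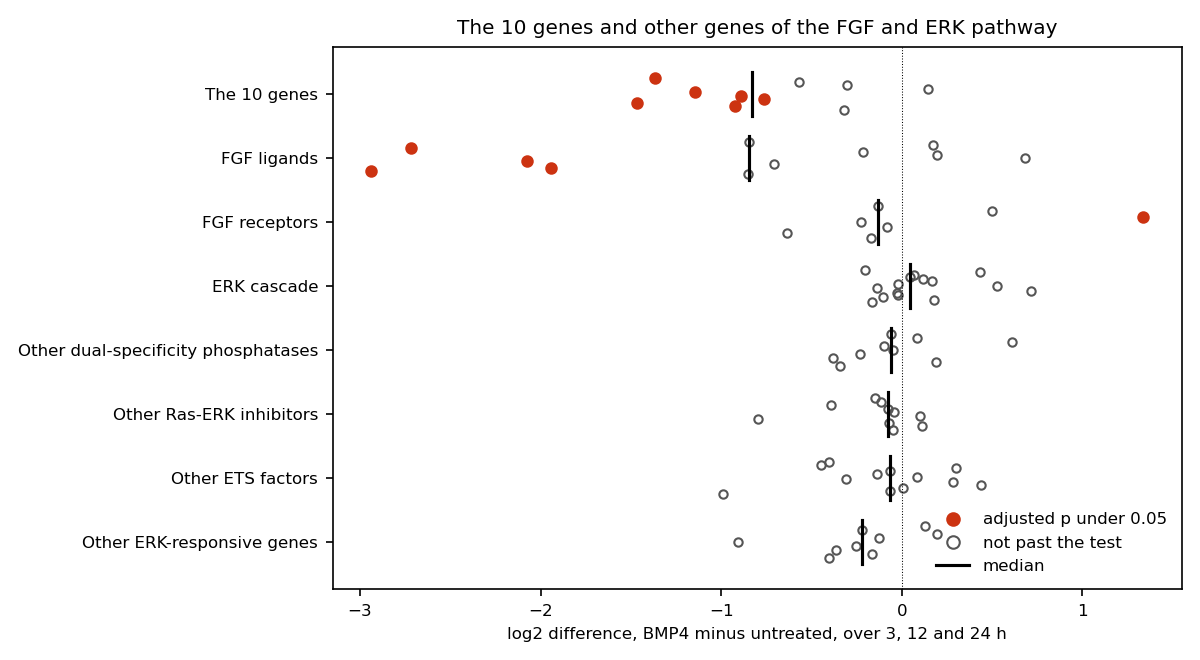
Log2 differences across times for the 10 genes and for lists of other FGF and ERK pathway genes, each point 1 gene, filled red where the adjusted p is under 0.05, with a bar at the median. Calls lie in the 10 genes, in 4 FGF ligands to the left and in FGFR3 to the right.

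Among the other genes of the pathway, ligand and receptor genes passed the test across times. Of 11 tested FGF ligand genes, 4 fell across times (FGF3, FGF8, FGF18 and FGF19) and none rose. FGF8, a ligand of the pharyngeal region, read 2209 untreated and 126 with BMP4 at 24 h, but 1635 and 1895 at 3 h. Of 7 receptor genes, FGFR3 rose (1.34 ± 0.25) and none fell.

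Of 55 tested genes in 5 lists from within and below the pathway, none was called across times or at 12 h. Of all named genes, 0.708% were called lower and 1.14% higher across times, and 0.341% and 0.691% at 12 h. At such shares few or no calls would arise among 55 genes, so their absence does not set these lists apart. The lowest adjusted p among them was 0.0514, for CCND1, and the list medians ran from −0.22 to 0.05. These are 15 genes of the cascade from adaptors to MEK and RSK, 9 other dual-specificity phosphatases and 12 other ETS factors. The rest are 10 other regulators of Ras and ERK signaling, mostly inhibitors, and 9 other ERK-responsive genes. MAP2K1 (MEK) differed by −0.03 ± 0.11 and GRB2, an adaptor, by 0.12 ± 0.09. The stress-inducible phosphatase DUSP1 differed by −0.06 ± 0.14, the Sprouty gene SPRY4 by −0.15 ± 0.24 and ERRFI1, an inhibitor of the EGF receptor, by −0.07 ± 0.11. SPRY4 had signals of only 44.4 to 74.6, near the array median, where a change could be missed. ETV1, the third factor of the PEA3 group, differed by −0.40 ± 0.12 (adjusted p = 0.168) and LRIG3 by −0.80 ± 0.21 (adjusted p = 0.107). At 24 h CCND1, the cyclin D1 gene, fell (−1.71 ± 0.28, adjusted p = 0.0288). The immediate early genes EGR1 (0.13 ± 0.23) and FOS (−0.22 ± 0.28) did not pass the test across times. FOS, at 35.1 to 96.3, was likewise near the array median.

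Markers of other cells in the explants moved in both directions alongside these genes. Of 9 tested neural and placode markers, 8 had a negative sign across times; SOX3 fell (−1.22 ± 0.23) and DLX5 rose (0.79 ± 0.12), and at 24 h SOX3 and PAX6 fell, with PAX6 at 6.93 with BMP4 against 1451 without. Their summed signal was 14812 to 17462 in untreated cultured arrays and 17663 to 21131 in treated ones, with DLX5 alone at 5679 to 11110 and 13328 to 15054. Without DLX5 the sum was lower with BMP4 at each time, at 9456 against 7803 at 3 h, 7246 (A) and 6875 (B) against 5023 (A) and 4742 (B) at 12 h, and 6352 against 3641 at 24 h. Of 10 endoderm and epithelium markers HHEX rose across times (1.09 ± 0.14) and none fell, while at 24 h PAX9 fell (−1.91 ± 0.32, limma, adjusted p = 0.0290). The sums of these markers were 34922 to 52337 untreated and 38922 to 66152 treated, with EPCAM the largest part. All 8 cardiomyocyte markers rose, with sums of 12111 to 49524 untreated and 17937 to 97539 treated. Of 9 heart field markers ISL1, HAND2 and GATA5 rose across times and none fell, but 4 of the 9 had a negative sign. Those 4 were TBX1, GATA4, MEF2C and the BMP4 gene, and the list median was 0.09. The heart field sums were 20068 to 24757 untreated and 32752 to 36118 treated, and ISL1 and GATA5 made up most of them.

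No marker was called across times among 8 endothelial, 4 blood, 5 neural crest and 4 smooth muscle genes. Of all named genes, 0.708% were called lower and 1.14% higher in that comparison. Summed signals of these marker lists, untreated and treated, were 3040 to 9902 and 3247 to 8777 for endothelium, and 3939 to 4258 and 3067 to 4765 for blood. LMO2 made up most of the blood sum, at 3506 to 3558 untreated and 2002 to 3711 treated. Across times LMO2 differed by −0.33 ± 0.14, and the globin genes HBE by 0.97 ± 0.25, HBAD by 0.70 ± 0.20 and HBA1 by −0.10 ± 0.34. For neural crest the sums were 3660 to 10913 and 4515 to 10005, with ETS1 the largest part on every cultured array. For smooth muscle the sums were 3637 to 4810 and 3709 to 6432. No marker is listed at 0. FOXF1, NEUROD1, SOX1, PAX3 and SPI1, a marker of blood, stayed below the array median on every array. The part of these cells in the differences of the 10 genes was not tested.

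**Figure D5:**
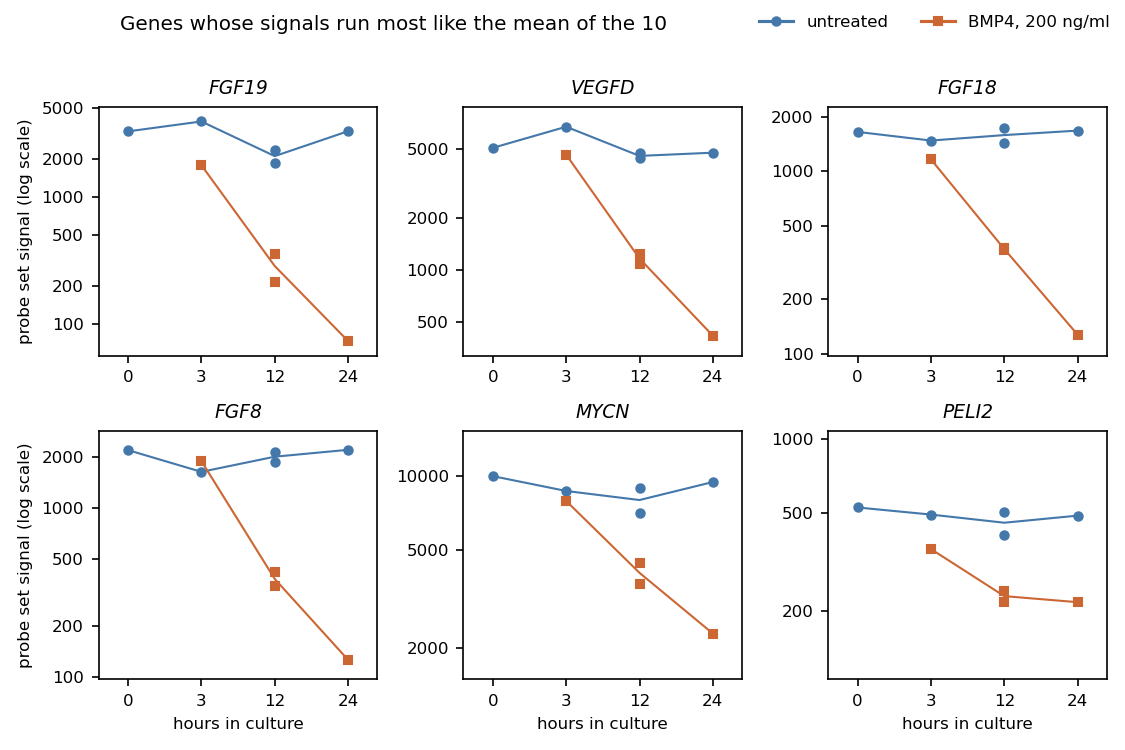
Signals, on log scales, of the 6 genes outside the 10 whose log2 signals correlate best with the mean standardised profile of the 10, against hours in culture, with the times evenly spaced. Points are arrays, lines join group means, blue circles are untreated and orange squares BMP4-treated explants; FGF19 goes from 1787 at 3 h to 73.5 at 24 h with BMP4.

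Across the 9 arrays the 10 genes, other than SPRED2, were positively correlated with each other, some of them weakly. Leaving out SPRED2, the 36 pairs had correlations of log2 signal from 0.38 to 0.96 with a median of 0.71, while SPRED2 had −0.39 to 0.18 with the other genes. Lowest were SPRY1, DUSP5 and DUSP6 with ETV5 (0.38, 0.45 and 0.49). The closest pairs were DUSP4 with ETV4 (0.96), SPRY2 with IL17RD (0.95) and SPRY1 with DUSP5 (0.94). DUSP4 and ETV4 have the 3 h peak in common, SPRY2 and IL17RD the lower signal at 3 h than at 0 h, and SPRY1 and DUSP5 the higher untreated signals after 0 h. For IL17RD this holds for the brighter probe set only. These are descriptions over 9 arrays that share their treatment and time. How strongly other genes with a BMP4 difference correlate with each other was not counted.

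Of 2525 other named genes whose log2 signal had an SD of at least 0.5, those closest to the mean standardised profile of the 10 were FGF19 (r = 0.98), VEGFD (0.98), FGF18 (0.97), FGF8 (0.97), MYCN (0.96) and PELI2 (0.95). FGF18 was also the gene closest to IL17RD alone (0.98), CCND1 that closest to ETV5 (0.96), PDGFA that closest to DUSP6 (0.94) and RBL1 that closest to DUSP4 (0.97). The closest to ETV4 was LOC771069 (0.97), to SPRY2 CCDC88B (0.97), to SPRY1 STARD10 (0.93), to SPRED1 SEMA3D (0.93), to DUSP5 BPIFB2 (0.94) and to SPRED2 ERICH3 (0.92). Each is the best of 2525 genes over 9 arrays, so a high correlation can arise without any link. STARD10 (7.36 to 71.0) ran near or below the array median, and BPIFB2 was at 5.76 to 18.5 with BMP4 at 12 and 24 h. SPRED2 and ERICH3 share their lowest value on untreated array A at 12 h (21.7 and 16.9). MYCN, a transcription factor of dividing progenitors, read 9433 untreated and 2284 with BMP4 at 24 h.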

How the data were processed

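Signal intensities of 9 Affymetrix chicken arrays, 1 per sample, were deposited on a linear scale and had been made by the authors with MAS5, per the submitters' processing notes; its version and scaling target are not given in the sources used here. Trimmed means of 504 to 505 on every array show that the arrays had been scaled alike. The number of arrays limits the precision. Samples were grouped by treatment and time from their labels. Of 38535 probe sets, 96 controls were left out, and 28329 with a signal above the 40th percentile of their array on at least 2 arrays were tested. A value of 27.79, the 25th percentile of all signals, was added before taking log2, so fold changes of dim probe sets are understated. Probe sets were named from the platform annotation: 27168 had 1 symbol, 177 several and 11094 none, and none of the latter 2 kinds was used by name.

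The test was that of limma 3.58.1 (lmFit, then eBayes with a variance trend, under R 4.3.3), and p-values were Benjamini-Hochberg adjusted over the 28329 probe sets, with calls at an adjusted p under 0.05. The effect across times came from the 8 cultured arrays in a model of time plus agent (4 residual degrees of freedom). Single times and steps used 7 group means over 9 arrays. Their 2 residual degrees of freedom come from the 12 h arrays, so a lone array is assumed to vary like those. The fits were also run on simulated data with noise set by the trend of variance with signal and a BMP4 difference constant over time. That run does not test those assumptions, and no result here rests on it. The members and gene lists were chosen with earlier results of these data known. All members are named. From each pathway list up to 6 called genes and up to 4 others are named, the others picked after their values were known, and for likeness the 6 genes closest to the mean profile and the closest to each member. Alternatives covered the value added, the filter, scaling, the variance trend, the probe set rule, the threshold, a replicate block and left-out arrays. A planned search of promoters for motifs was not run, and sequences were not used here.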

Additional observations from a re-analysis of the deposited data

How the results depend on the processing

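Of the 6 genes that fell across times, SPRY1 was called under 14 of 16 alternatives, DUSP5 under 11, DUSP4 under 9, DUSP6 and ETV4 under 8 and IL17RD under 5. The number of the 10 genes called lower across times became 0 with no variance trend, 3 with probe sets averaged per gene, 1 without the 24 h pair and 0 without the 12 h pairs, and 1 to 2 when 1 array was left out. Under the other alternatives it was 5 or 6. At 12 h, where 2 were called, it was 1 with no filter, 0 with no variance trend, 5 at an adjusted p under 0.10 and 1 to 2 with 1 array left out. At 24 h, where 3 were called, it was 1 with no filter, 0 with no variance trend, 5 with the mean of probe sets and 5 at an adjusted p under 0.10. In all comparisons the single arrays left out were those of 12 h. Leaving them out kept the 24 h differences the same and changed only their spread. For the change from 3 h to 24 h, a threshold of 0.10 gave 1. From 3 h to 12 h in BMP4, where 2 were called, 0 were called with no variance trend and 1 with the mean of probe sets. From 12 h to 24 h in BMP4 that threshold gave 1, and leaving out 1 array 0 to 1.

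With the letters A and B as a replicate block at 12 h, 7 of the 10 genes were called at 12 h (1106 probe sets, against 174 without the block) and 5 across times (295, against 340). The labels do not say that a letter marks a shared batch, and the differences of A from B in the 2 arms correlated at 0.13 over probe sets. With no variance trend 0 probe sets were called at 12 h and 4 across times. The sign of 3 values turned: SPRED2 was −0.059 across times and −0.16 at 12 h without untreated array A (up to 0.30 and 0.73 with another array left out), and ETV5 was −0.044 at 3 h with the mean of its probe sets. The causes were not tested, other than that leaving out arrays leaves fewer samples. Signals near the array median, as for SPRED2, SPRY4 and FOS, limit what could be seen.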
